A study of Homo sapiens with 2 samples.

Results

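The small nucleolar RNA host genes are long non-coding RNA genes whose introns carry small nucleolar RNAs (snoRNAs). The 10 genes GAS5, SNHG1, SNHG3, SNHG5, SNHG6, SNHG7, SNHG8, SNHG12, SNHG15 and ZFAS1 were looked up among 54613 compared probe sets, by the rule that a probe set must be listed with a member as its single gene symbol. Only 5 probe sets met the rule, 1 for GAS5 and 4 for ZFAS1, so 2 of the 10 genes, out of 19775 genes with such a probe set, were measured by the rule. A further 15 probe sets are listed with 1 of 9 members together with snoRNA symbols, and these are the probe sets for the remaining 8 genes and a further 4 for GAS5. They were kept apart and are described by locus, since the listing does not say which transcript a probe set measures. All 27 different symbols listed beside a member on them are snoRNAs, and in RefSeq all 27 lie within the span of that member.

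The samples are the human pancreatic neuroendocrine tumour line QGP1, with 1 array of cells selected by flow sorting for high aldehyde dehydrogenase activity (ALDH high) and 1 array of control QGP1 cells. Both are the same established line, and no genotype change, drug, culture time or sorting of the control cells is given in the sources used here. High ALDH activity is a property used to enrich for stem-like tumour cells. A level is the log2 RMA value of a probe set (a set of short probes for 1 target), and a difference is ALDH high minus control on that scale. With 1 array per group there was no replicate check of any difference, no error over samples and no test. In bulk RNA, a change in RNA per cell and a change in the share of cells that make it cannot be told apart.

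A host transcript is spliced, its introns are trimmed to snoRNAs that guide chemical modification or processing of ribosomal RNA, and its exons are exported although they carry no long reading frame. Many of these spliced RNAs begin with a terminal oligopyrimidine tract, a C followed by further C and T letters, as the ribosomal protein mRNAs do, which couples their translation to mTOR signalling. Because they are translated over short frames, several are removed by nonsense-mediated decay, and GAS5 was named for its build-up in cells that stop growing.

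The start sites are shown because this tract is the sequence feature by which the family is known. RefSeq's promoter table (GRCh38.p14) held 8 of the 10 genes, and the 60 bases from 20 before to 40 from the annotated start on are given 5′ to 3′ on the gene's strand. Capitals mark a run of a C followed by at least 4 C or T letters that begins within 5 bases of the start.
ZFAS1, chr20:49278622-49278681, plus strand: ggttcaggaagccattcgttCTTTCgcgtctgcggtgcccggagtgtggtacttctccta
SNHG5, chr6:85678694-85678753, minus strand: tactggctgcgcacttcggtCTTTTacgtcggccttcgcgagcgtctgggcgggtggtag
SNHG12, chr1:28581834-28581893, minus strand: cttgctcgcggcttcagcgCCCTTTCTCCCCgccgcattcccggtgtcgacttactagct
SNHG8, chr4:118278742-118278801, plus strand: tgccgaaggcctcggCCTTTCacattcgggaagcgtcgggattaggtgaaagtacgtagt
SNHG7, chr9:136728145-136728204, minus strand: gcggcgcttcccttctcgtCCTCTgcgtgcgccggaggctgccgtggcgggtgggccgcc
SNHG1, chr11:62855846-62855905, minus strand: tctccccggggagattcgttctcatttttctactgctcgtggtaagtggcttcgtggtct
SNHG3, chr1:28505923-28505982, plus strand: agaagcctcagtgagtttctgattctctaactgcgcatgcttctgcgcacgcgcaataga
GAS5, chr1:173869006-173869065, minus strand: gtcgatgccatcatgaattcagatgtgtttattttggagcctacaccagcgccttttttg

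The run was present in 5 of these 8 sequences, those of ZFAS1, SNHG5, SNHG12, SNHG8 and SNHG7. It was found in 21.1% of the 35116 promoters in the table and in 16 of 22 promoters of ribosomal protein genes that carry snoRNAs (72.7%). The run starts on the annotated first base in ZFAS1 and SNHG5, 1 base before it in SNHG12 and SNHG7, and 5 bases before it in SNHG8. It is longest in SNHG12, at 12 letters. In the 300 bases of each promoter, on either strand, the E-box CACGTG was found in SNHG7 alone, against 7.26% of all promoters, and CCAAT in GAS5 and SNHG5, against 34.6%. The amino acid response element TGATGNAA was found in 0 of the 8, against 3.62% of all. A match or its absence describes the letters of these windows, whose annotated starts may differ from those used in QGP1 cells.

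ZFAS1, a host of box C/D snoRNAs transcribed next to ZNFX1, gave most of the values under the rule, and its probe sets did not point one way.
Probe set 226835_s_at read 11.63 in ALDH high and 12.37 in control, a difference of -0.75 or 1.68-fold lower. Probe set 226227_x_at read 11.97 and 12.66, which is 1.61-fold lower (-0.69). Probe set 224915_x_at read 11.84 and 12.50, which is 1.57-fold lower (-0.65). These 3 bright probe sets were thus lower in ALDH high by nearly the same amount. The fourth ZFAS1 probe set, 229899_s_at, was much dimmer and opposite in sign, at 7.86 in ALDH high and 7.39 in control (0.47, 1.39-fold higher). The ZFAS1 differences span 1.22, a range larger than that of 98.4% of the 1393 genes with 4 probe sets. All 4 end in _s_at or _x_at, the suffixes of probe sets that can bind more than 1 transcript.

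GAS5 was measured by the rule only on 1560402_at, at a modest level of 6.02 in ALDH high and 6.18 in control (-0.16). This is smaller than the pooled SD of 0.23 between probe sets of 1 gene, which covers neither cultures nor sorts (0.18 over probe sets at or above the median level). Beside it stand the 4 probe sets listed with GAS5 and 8 of its intronic snoRNAs. The brightest, 224741_x_at, read 12.58 in ALDH high and 13.24 in control, 1.58-fold lower (-0.66). Next to it, 224841_x_at read 12.36 and 13.08, 1.66-fold lower (-0.73). The other two of the locus were higher in ALDH high. On 227517_s_at the level was 11.64 against 11.31, 1.26-fold higher (0.33), and on 228238_at 10.58 against 9.99, 1.51-fold higher (0.59). The GAS5 locus therefore gave both signs, with a span of 1.32 between its probe sets. The tables used here do not place the probes of a set in an exon, an intron or an alternative end, so the signs could not be tied to a spliced or unspliced form.

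**Figure D1:**
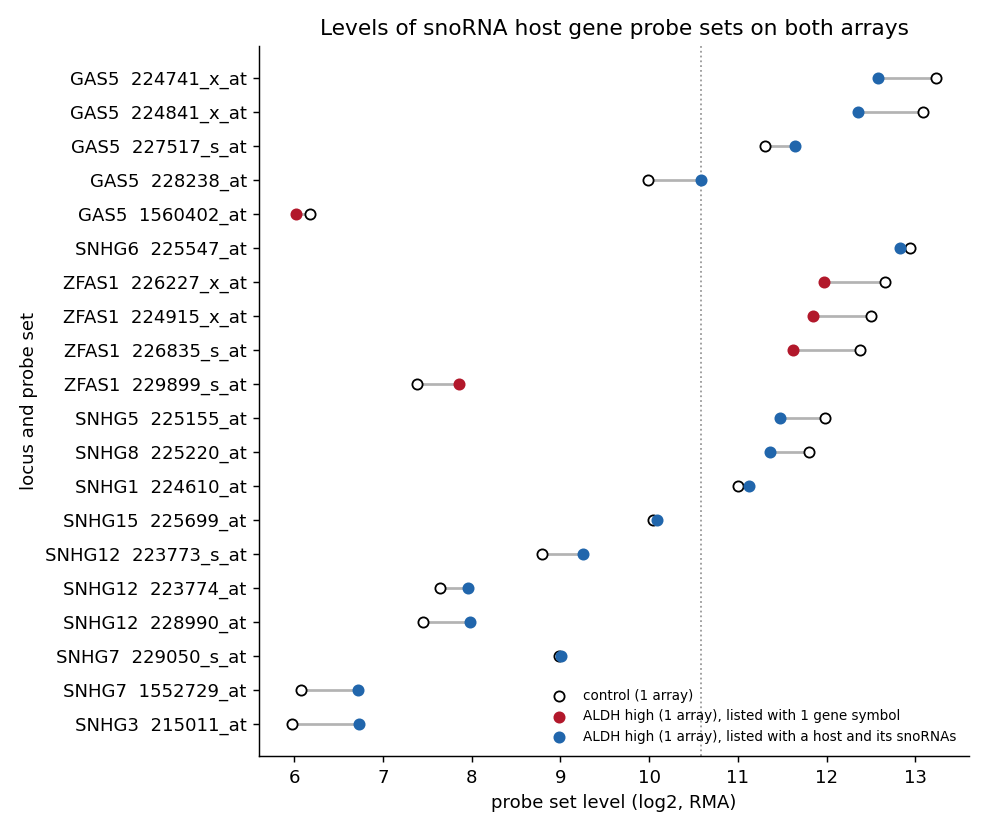
Level of each of 20 probe sets (x axis, log2 RMA) on the control array (open circles) and the ALDH-high array (filled circles, red where the listing holds 1 gene symbol and blue where it holds a member and its snoRNAs), ordered by locus, with 1 array per group and no error bars. Of the 10 probe sets with a mean level in the brightest 5% of the arrays (from 10.59, dotted line) 8 lie lower in ALDH high, and 9 of the 10 dimmer ones lie higher.

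None of the 5 probe sets of the rule, and none of the other 15, differed by over 2-fold, against 1.25% of all compared probe sets. At over 1.5-fold, 3 of the 5 were lower in ALDH high, all of them ZFAS1, against 3.09% of all probe sets. Of the 15 listed with snoRNAs, 2 were over 1.5-fold lower, both GAS5, and 3 were over 1.5-fold higher, against 2.78% of all. The GAS5 value of 0.59 lies just above the 1.5-fold line of 0.585, and was 0.576, below that line, with a pseudocount of 32 and 0.57 with differences centred by level. With the brightest single-symbol probe set for each gene, the median of GAS5 and ZFAS1 was -0.42. The median difference was -0.65 over the 5 probe sets, 0.12 over the 15 and 0 over all compared. Several of these probe sets share a gene, so the counts are not of independent genes.

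The single bright probe sets of 3 more loci were lower in ALDH high by smaller amounts. SNHG5, host of the U50 snoRNAs SNORD50A and SNORD50B, is listed on 225155_at, which read 11.48 in ALDH high and 11.98 in control, 1.42-fold lower (-0.51). SNHG8, host of SNORA24, is listed on 225220_at, which read 11.37 and 11.80, 1.35-fold lower (-0.43). SNHG6, host of SNORD87, is listed on 225547_at, which read 12.82 and 12.94 (-0.12). The SNHG6 difference is below the probe set spread of 0.23 and those of SNHG5 and SNHG8 are above it. That spread covers neither cultures nor sorts, and the probe sets of ZFAS1 and of GAS5 spanned more (1.22 and 1.32). None of the SNHG5, SNHG6 and SNHG8 probe sets has a suffix for shared targets.

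The SNHG12 and SNHG3 loci, close together on chromosome 1 with RCC1 overlapping SNHG3, were higher in ALDH high on every probe set. SNHG12 hosts H/ACA snoRNAs, which guide pseudouridylation, and its 3 probe sets are listed with SNORA16A, SNORA44 and SNORA61. They read 9.25 against 8.79 on 223773_s_at (0.46), 7.98 against 7.45 on 228990_at (0.53) and 7.96 against 7.64 on 223774_at (0.31). The differences amount to 1.24-fold to 1.44-fold, all in 1 direction. SNHG3 is listed with SNORA73A, a U17 RNA that acts in ribosomal RNA cleavage, on 215011_at. That probe set read 6.73 in ALDH high and 5.97 in control, 1.69-fold higher (0.76), the largest positive value among the 20. With a pseudocount it was 0.54, below 1.5-fold, so its size depends on how dim levels are treated.

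The remaining loci were level or mixed. SNHG7 is listed with SNORA17A and SNORA17B on 2 probe sets that disagreed in size. On 1552729_at the level was 6.72 against 6.08, 1.55-fold higher (0.64, or 0.46 with a pseudocount), and on the brighter 229050_s_at 9.00 against 8.99 (0.02). SNHG1, whose 8 listed snoRNAs include SNORD22, read 11.13 and 11.01 on 224610_at (0.12). SNHG15, listed with SNORA9 on 225699_at, read 10.09 and 10.04 (0.05). The SNHG1 and SNHG15 differences lie within the probe set spread.

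Over all 20 probe sets, the sign of the difference followed how bright the probe set was. Of the 10 in the brightest 5% of all compared probe sets, a mean level of 10.59 or more, 8 were lower in ALDH high, and the median was -0.58. These 8, from GAS5, ZFAS1, SNHG5, SNHG6 and SNHG8, are the 8 brightest of the 20, and the exceptions are 227517_s_at of GAS5 (0.33) and the SNHG1 probe set (0.12). Of the 10 dimmer ones 9 were higher, with a median of 0.47, the exception being 1560402_at of GAS5. Over all compared probe sets between the median level and the brightest 5%, 12739 were higher and 11384 lower, with a median of 0.02. The division at 5% was made after the values were seen. The 20 points correlated at Pearson's r = -0.74 and Spearman's rho = -0.75 between level and difference, against r = 0.02 over all compared probe sets. The r of 0.02 also covers probe sets dimmer than any of the 20, whose lowest mean level is 6.10. The points share 2 arrays and 10 loci, so their correlations only describe them. Brightness also depends on the probes' affinity and is not a measure of which host RNA is more abundant.

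**Figure D2:**
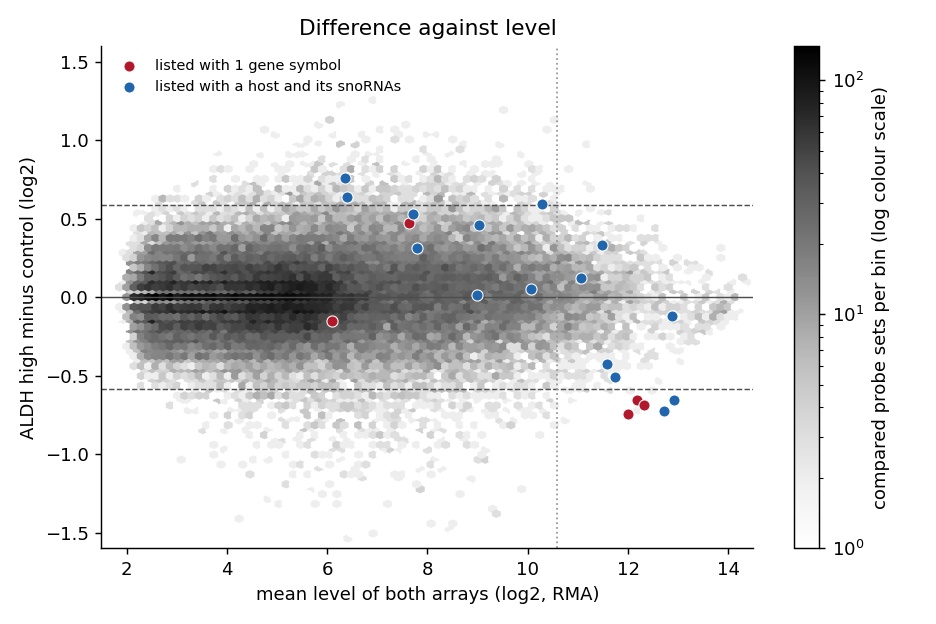
Difference, ALDH high minus control (y axis, log2), against the mean level of both arrays (x axis, log2 RMA) for the compared probe sets within the plotted range (grey hexagons, darker for more probe sets) and for the 20 host gene probe sets (points, red with 1 gene symbol, blue listed with snoRNAs). Dashed lines mark 1.5-fold and the dotted line the start of the brightest 5% of probe sets, right of which 8 of 10 points lie below 0.

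Across the whole array, the brightest 5% of probe sets lay on both sides of 0. Among all 2731 compared probe sets in the brightest 5%, 1389 were lower and 1337 higher, the median difference was -0.0041, and 3.48% were over 1.5-fold lower. Of the 10 host gene probe sets there, 5 were over 1.5-fold lower. All 5 end in _s_at or _x_at, and the 3 lower ones without such a suffix (SNHG5, SNHG6 and SNHG8) were lower by less than 1.5-fold. Among the brightest 5% the median was -0.01 for the 477 ending in _x_at, 0.0043 for the 1150 ending in _s_at and -0.0066 for the 1090 ending in _at alone. The part of brightness or of shared targets in the host gene differences was not tested.

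Other non-coding host genes outside the 10 were compared by their brightest single-symbol probe set. Of 25 listed genes 13 have such a probe set. The rest have none, and some of them, such as SNHG16 and SNHG29, have probe sets listed with snoRNAs, described below. None of the 13 was over 1.5-fold different in either direction, against 4.21% of all genes lower and 2.61% higher. Of them 6 lay above 0 and 7 below, with a median of -0.02 against -0.01 over all genes. EPB41L4A-AS1, host of SNORA13, was 1.48-fold lower on its brighter probe set (10.20 against 10.77) and higher on its dimmer one (7.04 against 6.60, 0.44). DANCR, named for restraining differentiation, was 1.40-fold higher (11.08 against 10.59).

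A further 13 probe sets are listed with snoRNAs and 1 long non-coding host outside the 10. They gave 6 values above 0 and 7 below, and a median of 0. In the brightest 5% lay 3 of them. The brightest, which ends in _x_at, is listed with SNHG29, SNORD49A, SNORD49B and SNORD65. It read 11.33 in ALDH high and 11.94 in control (-0.61, 1.53-fold lower). Of the 13, it alone was over 1.5-fold different, against 3.09% of all probe sets lower. Dimmer probe sets with the same SNHG29 listing differed by -0.08 (6.04 against 6.12) and 0.18 (3.40 against 3.21). The rest of those in the brightest 5% were probe sets of SNHG16, which at 11.30 against 11.07 and 11.01 against 10.88 were slightly higher. These probe sets and hosts were picked by their annotation after the values of the members had been seen.

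Protein-coding genes that carry snoRNAs were mostly level, with a few higher members. Of 8 measured ribosomal protein hosts 7 lay below 0, against 9950 of all 19775 genes. None of the 8 was over 1.5-fold different. Their median was -0.08, with RPL3 at -0.25 and RPL12 at -0.16. Of 14 other protein-coding hosts RCC1 was the only one over 1.5-fold different (9.00 against 8.37, 0.63), and HSPA9, the mitochondrial chaperone, was 1.33-fold lower on its brightest probe set (12.09 against 12.50). The other HSPA9 probe sets differed by -0.48, by -0.70 (1.62-fold lower, 8.77 against 9.47) and, at a dim level, by -0.02. Without shared-target probe sets RCC1 has no value, and HSPA9 (-0.70) is the gene over 1.5-fold different. RCC1, the exchange factor for Ran, overlaps SNHG3 in RefSeq, and its second probe set differed by 0.36.

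Of the 77 probe sets listed with snoRNAs and 1 protein-coding host, none was over 1.5-fold lower, against 3.09% of all probe sets. Over 1.5-fold higher were 5, against 2.78% of all. These 5 belong to HSPA8, NOP56 and, at a dim level, RPL27A, so they are not independent genes. In the brightest 5% lay 50 of the 77, of which 31 were below 0, with a median of -0.07 and a lowest value of -0.42 (NOP53). HSPA8, the constitutive cytosolic chaperone, was higher on its 4 bright probe sets, by 0.34 to 0.75.

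**Figure D3:**
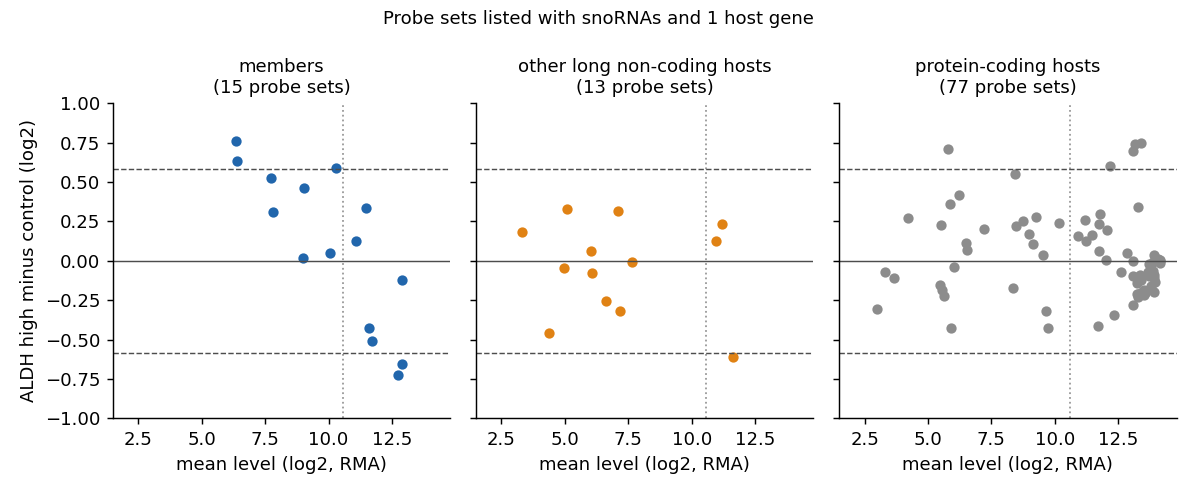
Difference, ALDH high minus control (y axis, log2), against mean level (x axis, log2 RMA) for probe sets listed with snoRNAs and 1 host gene, by kind of host, with 1 point per probe set and 1 array per group. Right of the dotted line, in the brightest 5% of all probe sets, the 7 points of the members lie from -0.73 to 0.33, and the 50 of protein-coding hosts from -0.42 to 0.75.

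The proteins that bind snoRNAs and the factors that assemble them differed little on single-symbol probe sets. Of the 8 core proteins of box C/D and box H/ACA particles 6 were measured, none over 1.5-fold different, with a median of 0.08. NOP58, a scaffold of box C/D particles, was 1.21-fold higher (11.51 against 11.23), and SNU13, which binds the kink-turn of the RNA, was 1.12-fold lower (9.93 against 10.10). Probe sets for the other two core proteins are listed with snoRNAs. Those listed with NOP56 read 12.48 against 11.88 (0.60, 1.52-fold higher and so over 1.5-fold) and 9.41 against 9.13 (0.28). The 3 listed with DKC1, the pseudouridine synthase, were higher by 0.19 to 0.24. The 11 assembly factors had 9 values above 0, against 9012 of all 19775 genes, and a median of 0.05. NAF1 (0.35) and ZNHIT6 (0.22) led them, and none was over 1.5-fold different.

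Factors of nonsense-mediated decay, the pathway known to remove spliced host RNAs, differed little. Of 16 listed factors 10 were measured, with a median of 0.14 and none over 1.5-fold different. Above 0 lay 9 of the 10, against 9012 of all 19775 genes. All 10 lie at or above the median level, where the pooled SD between probe sets of 1 gene is 0.18, more than this median. A link to the host gene differences was not tested. SMG9, a regulator of the kinase SMG1, was 1.25-fold higher (7.61 against 7.28), and NBAS was 1.22-fold lower (8.46 against 8.74). None of these pathway genes was over 2-fold different, against 1.69% of all genes.

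**Figure D4:**
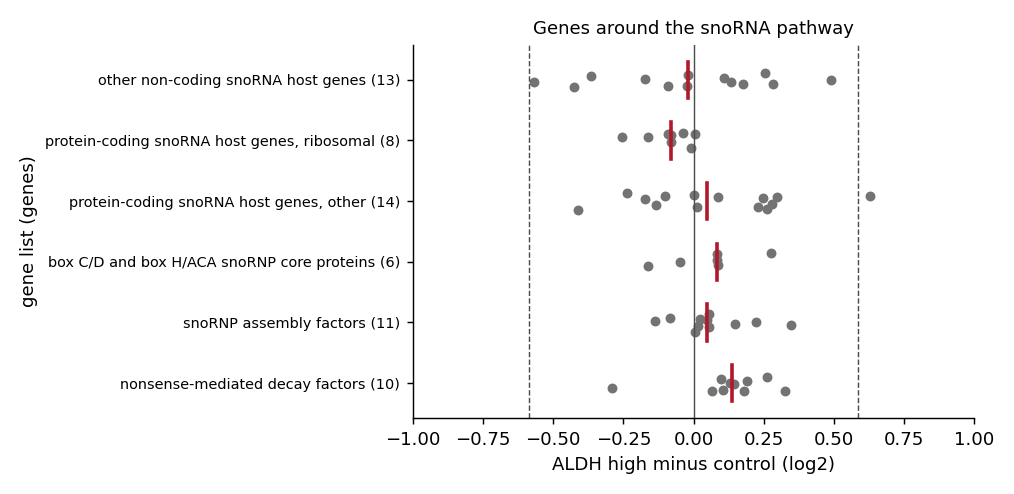
Difference, ALDH high minus control (x axis, log2), of each measured gene in 6 lists (rows, number of genes in brackets), with 1 grey point per gene (spread vertically for visibility), red bars at list medians and dashed lines at 1.5-fold. RCC1 at 0.63 is the only gene beyond a dashed line.

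The nearest RefSeq genes on either side of the members, and those overlapping them, showed no common direction. SLC3A2, an amino acid transporter chain beside SNHG1, was lower in ALDH high (10.85 against 11.65, -0.80), while WDR74 on the other side was at 0.10. PRSS12, beside SNHG8, was also lower (5.34 against 6.24, -0.89) and TCF24, beside SNHG6, was higher at a dim level (3.77 against 3.20, 0.57). ZNFX1, beside ZFAS1, was at 0.12, and ZBTB37, which overlaps GAS5, at -0.11. GAS5-AS1, the antisense transcript of that locus, was dim on both arrays (4.05 against 4.31). TRNAU1AP, which overlaps SNHG12, was at 0.19, and DIPK1B, which overlaps SNHG7, at -0.28. MCMDC2, overlapping SNHG6, was dim and at -0.27, and MYO1G, beside SNHG15, was dim and at -0.10. RCC1, which overlaps SNHG3 and is the nearest gene on 1 side of SNHG12, was the highest of the measured neighbours (0.63). The others ranged from -0.31 (AGPAT2, beside SNHG7) to 0.04 (SERPINC1, beside GAS5), with LCN10 at -0.09, RAB42 at -0.17 and PHACTR4 equal on both arrays.

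The labelled line was checked on markers of its type. All 11 neuroendocrine and epithelial markers were at or above the median level on both arrays together, led in difference by CEACAM5 (13.42 against 13.88, -0.46) and INSM1 (0.34). Of 13 measured markers of other cell types, 4 reached the median level. Their differences ran from -0.28 to 0.02 for fibroblast, -0.21 to -0.07 for endothelial and -1.33 to 0.22 for leukocyte markers, with LYZ (4.34 against 5.67) and CD14 (4.30 against 5.32) over 2-fold lower at dim levels. Among signs of RNA quality, the ratio of the 3′ to the 5′ ACTB probe set was 1.83 in ALDH high and 1.67 in control, and that of GAPDH 1.14 and 1.15. The 18 probe sets of hybridisation controls were higher by 0.05 on average (SD 0.04), and the 24 probe sets of added poly-A controls were higher in ALDH high by 0.32 on average (SD 0.07 over probe sets). The part of these in the host gene differences was not tested.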

How the data were processed

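The deposited levels are on a log2 scale and, per the submitters' processing notes, come from RMA, of which no version is named. RMA makes the arrays' distributions alike, so a shift of all RNAs is not visible. From 54675 probe sets, 62 Affymetrix controls were left out. Gene symbols came from GEO's platform annotation (1 symbol for 41097 probe sets, several for 1801, none for 11777). For gene lists the probe set with the highest mean of both arrays stood for a gene. Differences and folds were computed with Python 3.11.15, numpy 2.4.6 and pandas 2.3.3. No test across samples was made, since each group has 1 array, and the number of arrays limits the precision. The members, lists and motifs were chosen with earlier results of these data known. The genes named are all members, all measured neighbours and, per list, up to 4 genes over 2-fold and never fewer than the 2 that differed most. Other genes, among them those named from listings with snoRNAs, were named after their values were seen. Alternatives were the mean or median of a gene's probe sets, no shared-target probe sets (ending in _s_at, _x_at or _a_at), levels at or above the median, a pseudocount of 32, and centring by array or within 20 level bins. A further, unplanned one took the count of member probe sets over 1.5-fold lower in the brightest 5%.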

Additional observations from a re-analysis of the deposited data

How the results depend on the processing

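No paired analysis was possible because each group has 1 array. Of 228 values under the alternatives, 219 moved by less than 0.23, the pooled SD between probe sets of 1 gene, or, as counts, by no more than 1.5 times. Many of them could hardly move, so this total is not a measure of robustness. Centring by array shifts all differences equally, by the small gap between array medians of 5.679 and 5.683. The medians of the level bins lay between -0.0041 and 0.034. GAS5 has 1 probe set by the rule, so its mean and median are the same value. Many counts stayed at 0. No difference over 1.5-fold changed sign. The sign changed for 6 values near 0, namely 229050_s_at of SNHG7 (-0.01 with centring within level bins) and 5 list medians. Those of other non-coding hosts became 0.0064 with the mean and with the median of a gene's probe sets and 0.13 at or above the median level, and that of other protein-coding hosts became -0.01 with the median of a gene's probe sets. Without shared-target probe sets ZFAS1 has no value, so the median of the members became that of GAS5 alone (-0.16) and the count of their probe sets over 1.5-fold lower became 0. In that setting the ribosomal protein hosts held 2 measured genes, with a median of 0.32 in place of -0.08 and 1 gene over 1.5-fold (RPS24, 0.74). The mean over its probe sets put ZFAS1 at -0.40. Among other protein-coding hosts the count over 1.5-fold was 0 with the mean or the median of a gene's probe sets and 0 with a pseudocount. Centring within level bins gave 1 other non-coding host over 1.5-fold. The arrays carry no detection calls, so dim levels, such as those of SNHG3 and 1552729_at of SNHG7, are the least certain.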

Other observations

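Probe sets listed with snoRNA symbols alone, 24 in all, gave 14 values above 0 and 7 below, a median of 0.06 and a range from -0.36 to 0.42, with none over 1.5-fold. The labelling primes from poly-A tails, which mature snoRNAs lack. The 25 probe sets listed with snoRNAs and several host genes had a median of -0.03 and none over 1.5-fold.

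EPB41L4A-AS1, ZFAS1 and the GAS5 locus each held a brighter probe set that was lower in ALDH high (-0.57, -0.69 and -0.66) and a dimmer one that was higher (0.44, 0.47 and 0.59). The GAS5 locus did not follow this throughout. Its dimmest probe set, 1560402_at, was lower (-0.16) and its bright 227517_s_at was higher (0.33). Among the 10523 genes with several single-symbol probe sets, 257 (2.44%) had a span of at least 1 between their differences, ZFAS1 among them. These loci were picked after their values were seen, and the share of all genes with a lower bright and a higher dim probe set was not counted. Some other hosts did not show it: the SNHG7 and SNHG12 loci were higher, and HSPA9 lower, on every probe set. The SNHG29 listing was lower on its brightest probe set (-0.61) and higher on its dimmest (0.18), with -0.08 between them.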
